A study of Mus musculus with 6 samples.

Results

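A set of 10 genes in common use as internal references for RNA measurements had 20 spots each on the arrays of this study, so the reading error of their level can be measured directly. They are *Actb*, *B2m*, *Gapdh*, *Gusb*, *Hprt*, *Hsp90ab1*, *Nono*, *Ppia*, *Rpl13a* and *Tbp*. They were found by the custom prefix of their spot names and named through the RefSeq transcript that the array design gives for them, and they are 10 of the 15 genes with replicate spots, among 60915 features in all. RNA came from the neocortex of adult male mice, 3 *Khsrp*-/- (labelled KHSRP-KO) and 3 wild type (*Khsrp*+/+), with 1 array of 1 colour per sample. The knockout is constitutive, with a deletion that runs from the first to the thirteenth exon of *Khsrp*, on animals crossed repeatedly to C57Bl/6, so every cell of the animal lacks the protein. KHSRP is an RNA-binding protein that promotes the decay of mRNAs with AU-rich elements. No feature could be named as *Khsrp* from the tables used here, so the targeted gene was not analysed here.

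A reference gene serves as a yardstick. It encodes a protein that nearly all cells need, and its mRNA is assumed to keep the same share of the RNA whatever the condition, so that other genes can be expressed relative to it. Actin, glycolytic enzymes, chaperones, ribosomal proteins and basal transcription factors are the usual choices, and panels mix genes of different pathways because no single one is constant in every tissue. In RNA from whole tissue, fewer cells that express a gene and less of its RNA per cell cannot be told apart.

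The question put to these genes was how closely an array measures a level, how much that level varied between samples of a genotype, and whether it differed between genotypes. Each level below is the mean log2 signal of a gene's spots on an array less that array's 75th percentile over all features, unless a value is called unscaled, and levels are compared only for the same gene across arrays. Genotypes were compared with limma fitted over 48438 features, and the labels do not say that each sample came from a separate animal, so the p-values measure only the spread between these samples, which may be technical. A feature was called at an unadjusted p under 0.05 with a change of at least 0.32 on the log2 scale. Between 71.3% and 82.6% of the spots of an array were well above background. Slides were read from identical scan times. One slide held wild type arrays 1 and 2, another held *Khsrp*-/- arrays 2 and 3, and the last held *Khsrp*-/- array 1 with wild type array 3, so that slide and genotype are largely confounded. Of 21 marker genes of neurons, glia and endothelium, 2 could be named, the neuronal *Snap25* and the astrocytic *Slc1a2*. Both were named through the study's table of features selected on these same arrays. Each was well above background on all 6 arrays, so the labelled tissue was checked only that far.

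*Actb*, which encodes the cytoplasmic beta-actin of the cytoskeleton, was the lowest of the 10 in *Khsrp*-/- neocortex relative to wild type. In *Khsrp*-/- arrays 1, 2 and 3 its level was 6.67, 6.87 and 6.30, and in wild type arrays 1, 2 and 3 it was 6.99, 7.08 and 7.07. The highest *Khsrp*-/- value was thus below the lowest wild type value, and array 3 lay furthest down. The mean was 6.62 ± 0.29 against 7.05 ± 0.05 (SD, n = 3 each), a log2 difference of -0.43 with a standard error of 0.18 and a 95% interval from -0.86 to 0.004, which is 0.743 of the wild type level. Its unadjusted limma p was 0.052, so it did not pass the threshold, and its adjusted p over all features was 0.31. The difference was -0.27 without *Khsrp*-/- array 3 (limma, adjusted p = 0.597), and -0.56 without *Khsrp*-/- array 2, where it passed the unadjusted threshold (adjusted p = 0.287). The fit without array 2 called 4220 of 48438 features higher and 2421 lower.

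*Gapdh*, the glycolytic enzyme most often used as a loading control, stood at 8.90, 9.35 and 9.20 in *Khsrp*-/- against 9.01, 8.99 and 9.05 in wild type, here and below in the order of the array numbers. The wild type arrays differed by less than the *Khsrp*-/- arrays did, and the genotypes overlapped. The log2 difference was 0.13 ± 0.17 (SE), with a limma adjusted p of 0.725.

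The chaperones also overlapped between genotypes. *Hsp90ab1*, the constitutive cytosolic HSP90, had levels of 6.86, 7.37 and 6.84 against 7.05, 6.91 and 7.16. Its *Khsrp*-/- array 2 was high and the other two lay below every wild type array, which left a difference of -0.02 ± 0.19 (SE, limma adjusted p = 0.968). *Ppia*, the prolyl isomerase cyclophilin A, had levels of 8.59, 8.97 and 8.93 against 8.72, 8.69 and 8.78. Its difference was 0.10 ± 0.16 (SE, limma adjusted p = 0.785), with *Khsrp*-/- array 1 the lowest of the 6.

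*Rpl13a*, a protein of the large ribosomal subunit, was the 1 gene of the 10 that was called. It measured 4.23, 4.62 and 4.48 in *Khsrp*-/- against 3.85, 3.94 and 4.17 in wild type. The genotypes did not overlap, although *Khsrp*-/- array 1 and wild type array 3, on the slide they share, differed by only 0.06. The mean rose from 3.99 ± 0.17 to 4.45 ± 0.20 (SD, n = 3 each), a log2 difference of 0.46 ± 0.17 (SE, 95% interval 0.05 to 0.87) or 1.37-fold. The unadjusted limma p was 0.033, the adjusted p 0.277 and the exact two-sided permutation p 0.1. The call was lost when *Khsrp*-/- array 2 or 3 or wild type array 1 or 2 was left out, with differences of 0.37, 0.44, 0.39 and 0.43 in that order. It was also lost with the slide as a block (limma adjusted p = 0.98), where the difference of 0.06 is that of the same pair of arrays. The call was lost too with the slide as a random block (0.38, limma adjusted p = 0.480) and with the replicate number as a block (0.46, limma adjusted p = 0.399).

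The nuclear factors did not differ beyond their spread. *Tbp*, the TATA-binding protein of the basal transcription machinery, had levels of 0.31, 0.65 and 0.39 against 0.21, 0.20 and 0.36, a difference of 0.20 ± 0.16 (SE, limma adjusted p = 0.568). *Nono*, a paraspeckle protein that takes part in transcription and splicing, had levels of 2.75, 3.29 and 2.78 against 2.79, 2.68 and 2.95. Here *Khsrp*-/- array 2 alone stood above the wild type range, and the difference was 0.13 ± 0.20 (SE, limma adjusted p = 0.778).

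*Gusb*, the lysosomal beta-glucuronidase, had levels of 0.89, 1.14 and 1.19 against 0.56, 0.77 and 0.79. The genotypes did not overlap, and the difference of 0.37 ± 0.16 (SE, 95% interval -0.01 to 0.75) had an unadjusted limma p of 0.056 and an adjusted p of 0.318. *Hprt*, the purine salvage enzyme, had levels of 6.47, 7.01 and 7.10 against 6.53, 6.42 and 6.66. Its *Khsrp*-/- arrays 2 and 3 were above every wild type array and array 1 was inside their range, with a difference of 0.32 ± 0.20 (SE, limma adjusted p = 0.461). Both genes passed the unadjusted threshold when *Khsrp*-/- array 1 was left out, with differences of 0.46 and 0.52. Over the whole array that fit called 6641 features higher and 6409 lower of 48437, where the fit to all arrays called 4484 and 3405 of 48438. Passing there therefore does not set these genes apart from the array. *B2m*, the light chain of MHC class I molecules, had levels of 5.35, 5.66 and 5.66 against 5.22, 5.40 and 5.34, a difference of 0.24 ± 0.16 (SE, limma adjusted p = 0.485).

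**Figure D1:**
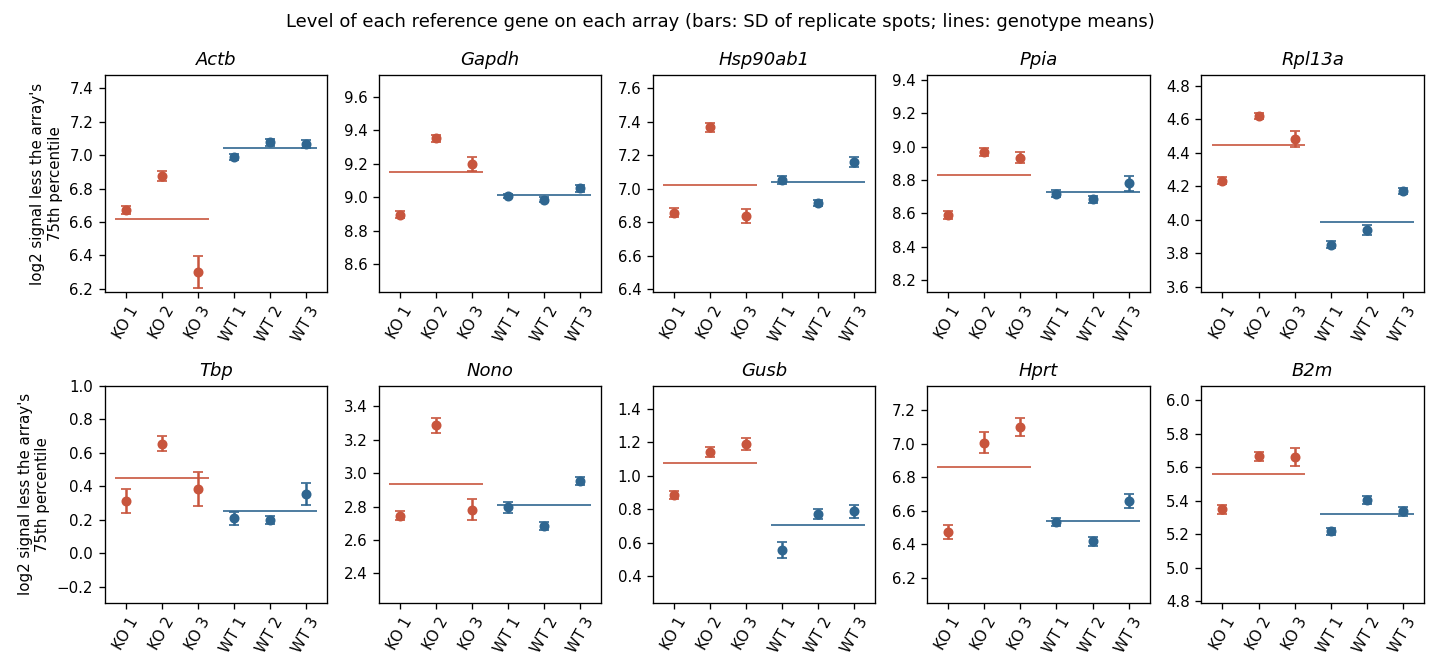
Level of each reference gene (log2 signal less the 75th percentile of the array, vertical axes of equal span) on *Khsrp*-/- arrays 1 to 3 (KO, red) and wild type arrays 1 to 3 (WT, blue); bars are the SD of the replicate spots and lines the genotype means. The genotypes separate for *Actb* (lower in *Khsrp*-/-), *Rpl13a* and *Gusb* (higher), and the bars are short beside the distances between arrays.

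Of the 10 genes, 8 had a higher mean in *Khsrp*-/- neocortex and 2 a lower one, with a median log2 difference of 0.16 where the median over all 48438 features was -0.0006. The median of the 10 genes was 0.065, with 7 higher and 3 lower, without *Khsrp*-/- array 2, and 0.26, with 9 higher, without *Khsrp*-/- array 1. One of the 10 was called with the unadjusted p, against 16.3% of all features, and 9.26% of all features were called higher as *Rpl13a* was. With the adjusted p, 0 were called, against 0.095% of all features. The genotypes did not overlap for 3 of the 10, *Actb*, *Gusb* and *Rpl13a*, against 22.3% of the features measured on all 6 arrays. With 3 arrays a side, the exact two-sided permutation test cannot go below a p of 0.1, which is what it gave for these 3 genes. The 95% interval lay within a log2 difference of -1 and 1 for all 10, so changes of that size were outside the interval of each gene, and 4 of the 10 had an estimate past 0.32 in size. Among the 5 other genes with replicate spots, *Tfrc*, the transferrin receptor, lay outside the range of the 10, with a difference of 0.67 ± 0.24 (SE, limma adjusted p = 0.260). The remaining 4 lay between -0.18 and 0.35.

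How these differences read depended on what the arrays were set level to. Unscaled, the 75th percentile of all features was 8.85, 8.46 and 8.42 in *Khsrp*-/- against 8.92, 8.96 and 8.73 in wild type, a range of 0.53. The mean of the 10 genes, also unscaled, had a range of 0.35. On *Khsrp*-/- array 2 it deviated from the mean of the 6 arrays by only 0.01 where the percentile deviated by -0.27. On *Khsrp*-/- array 3 both were low, by -0.23 and -0.30. The difference between genotypes, *Khsrp*-/- minus wild type, was -0.29 for the percentile, -0.14 for the mean of the 10 genes and -0.08 for the mean of the 9 without *Actb*.

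With no scaling, 7 of the 10 genes were lower in *Khsrp*-/- and 3 (*Gusb*, *Hprt* and *Rpl13a*) higher, with a median of -0.13 where the median of all features was -0.29. The difference of *Actb* was then -0.72 and passed the unadjusted threshold (limma adjusted p = 0.281), and that of *Rpl13a* was 0.17 and did not (adjusted p = 0.538). That fit called 7286 of 48438 features lower and 1221 higher, so passing there does not set *Actb* apart from the array. With the mean of the 10 genes subtracted from each array, *Actb* differed by -0.58 and passed the unadjusted threshold (limma adjusted p = 0.345) and *Rpl13a* differed by 0.31 and did not (adjusted p = 0.406), while *Gapdh*, *Nono* and *Ppia* turned direction, to -0.02, -0.02 and -0.05. That subtraction takes the mean difference of these genes off each of the 10, so the change of direction follows by construction. Over the whole array that choice moved the split of called features from 4484 higher and 3405 lower to 2040 higher and 4503 lower. *Actb* was the lowest of the 10 and *Rpl13a* the highest under each of these settings.

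**Figure D2:**
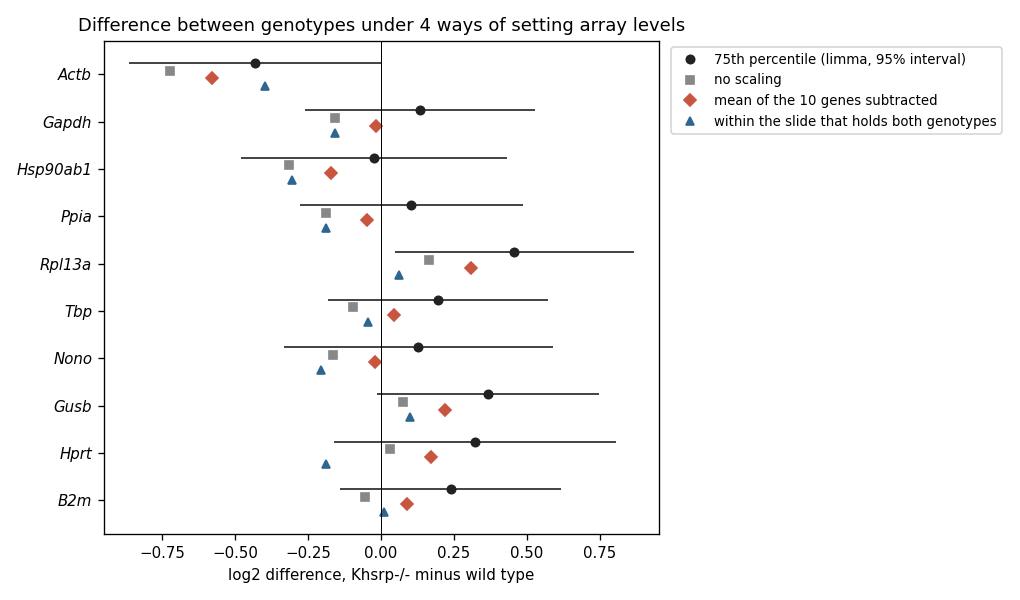
Log2 difference of each gene, *Khsrp*-/- minus wild type, with the 75th percentile subtracted (circles, with limma's 95% interval), with no scaling (squares), with the mean of the 10 genes subtracted (diamonds) and within the 1 slide that held both genotypes (triangles). *Actb* lies below 0 and *Rpl13a* and *Gusb* above it in all 4, at different distances, *Gapdh*, *Nono* and *Ppia* lie above 0 only with the percentile subtracted, and *B2m*, *Hprt* and *Tbp* change side under 1 or 2 of the other choices.

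The slide that held both genotypes gave 1 array against 1. There *Khsrp*-/- array 1 was below wild type array 3 for 7 of the 10 genes, with a median difference of -0.17, and a difference of -0.40 for *Actb*, which was -0.43 over all arrays. The differences above 0 were 0.10 for *Gusb*, 0.06 for *Rpl13a* and 0.01 for *B2m*. *Hprt*, with a difference of 0.32 over all arrays, was -0.19 on this slide. Fitted with the slide as a block, 0 of the 10 were called, where 1762 features were called higher and 1092 lower of 48411. Only this slide held both genotypes, so the difference in that fit is the same 1 array against 1.

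**Figure D3:**
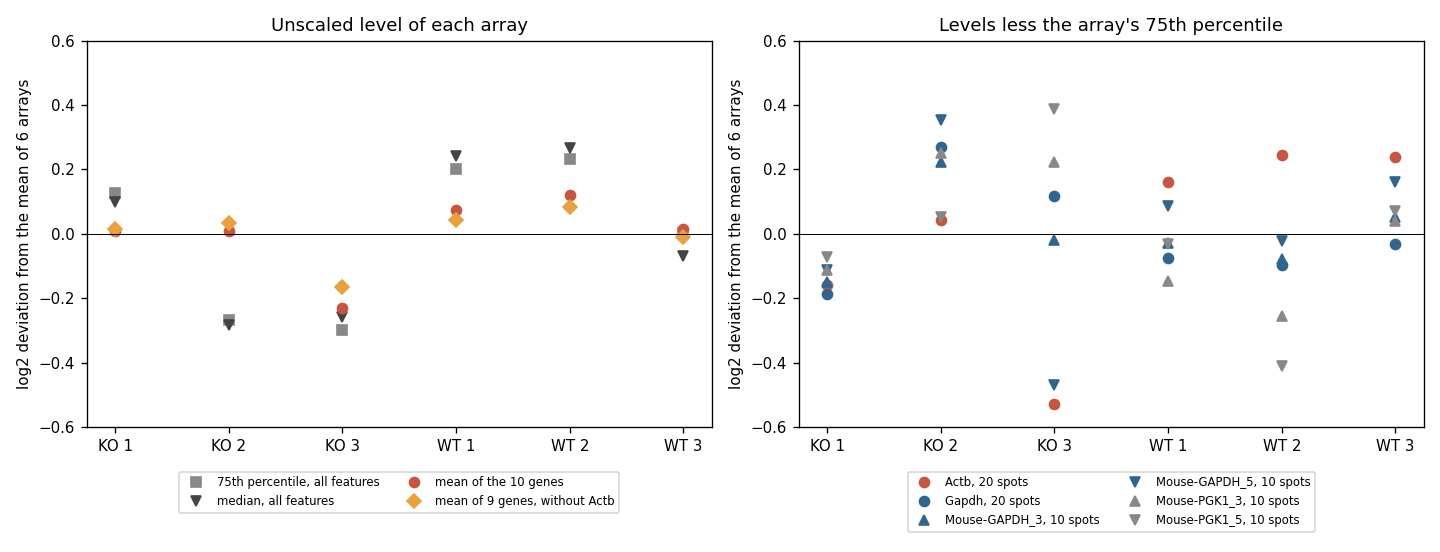
Deviation of each array from the mean of the 6 arrays (log2). On the left are unscaled levels of all features (75th percentile, median) and of the reference genes (mean of 10, mean of 9 without *Actb*). On the right are levels less the 75th percentile of *Actb*, *Gapdh* and the mouse control spots named for GAPDH and PGK1. On *Khsrp*-/- array 2 the percentile lies at -0.27 and the mean of the 10 genes at 0.01, and on *Khsrp*-/- array 3 *Actb* and Mouse-GAPDH_5 lie at -0.53 and -0.47.

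Ratios between genes of the same array do not change when the same value is subtracted from every feature of that array. Over the 45 pairs, the SD of the log2 ratio across the 6 arrays had a median of 0.17. The most constant pair was *Gapdh* and *Ppia*, with an SD of 0.042 over the 6 arrays and a difference of the ratio between genotypes of 0.03. The ratio of the glycolytic enzyme to the isomerase deviated from its mean by at most 0.08, on *Khsrp*-/- array 2. *B2m* and *Gusb* followed at 0.082, and *Hsp90ab1* and *Nono* at 0.086. Averaged over its 9 partners, *Gapdh* had the lowest SD at 0.159, followed by *Tbp* at 0.162 and *Ppia* at 0.169.

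*Actb* stood apart with a mean SD of 0.415, and the next highest gene, *Rpl13a*, had 0.229. The least constant pair was *Actb* and *Rpl13a*, at 0.53, with *Actb* and *Hprt* next at the same rounded value. Their log2 ratio deviated from its mean by -0.18, -0.36 and -0.79 in *Khsrp*-/- and by 0.53, 0.52 and 0.28 in wild type. The ratio differed between genotypes by -0.89 on the log2 scale, with no overlap (exact permutation p = 0.1, the smallest the design allows), and by -0.46 on the slide that held both genotypes. Against each of its 9 partners *Actb* was lower in *Khsrp*-/-, by -0.41 (against *Hsp90ab1*) to -0.89, and on the shared slide by -0.09 to -0.50. *Actb* had the lowest difference of the reference genes both over all arrays and on that slide. The direction against every partner therefore follows by construction and adds no separate evidence. Within wild type the SD of the ratios of *Actb* lay between 0.051 and 0.143, where the median of all pairs was 0.106. Within *Khsrp*-/- it ran from 0.190 to 0.507, where the median of all pairs was 0.184. Among the 36 pairs without *Actb* no ratio differed between genotypes by more than 0.48. Some of these pairs did not overlap between genotypes either, such as *Gapdh* with *Rpl13a* and *Hsp90ab1* with *Nono*. Others overlapped, such as *Gapdh* with *Ppia*.

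**Figure D4:**
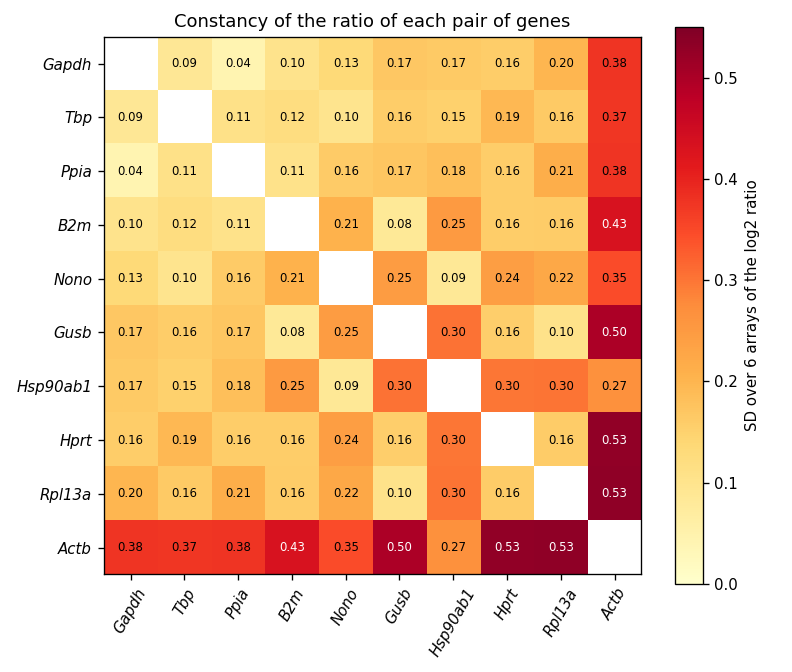
SD over the 6 arrays of the log2 ratio of each pair of reference genes, ordered by the mean over partners, from *Gapdh* (0.159) to *Actb* (0.415). The row and column of *Actb* hold values from 0.27 to 0.53, and the palest cell is *Gapdh* with *Ppia* at 0.042.

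The replicate spots give the error of reading a level. All 1200 spots of the 10 genes on the 6 arrays were well above background and 0 were saturated. The SD of the log2 signal over the spots of a gene on an array had a median of 0.028, which is a coefficient of variation of 1.9%, and was under 0.1 in 59 of 60 cases. The steadiest was *Gapdh* on wild type array 1, at 0.013, and the exception was *Tbp* on *Khsrp*-/- array 3, at 0.102. *Actb* on that same array came next, at 0.095, where its SD on the other 5 arrays was between 0.019 and 0.029. *Khsrp*-/- array 3 had the widest spots for 7 of the 10 genes and a median spot SD of 0.050, against 0.023 to 0.029 on the other arrays. For these 10 genes the standard error of the mean on an array never exceeded 0.023, while *Actb* on *Khsrp*-/- array 3 differed by -0.47 from the mean of *Khsrp*-/- arrays 1 and 2. Spots of the other genes with replicate spots were not all as steady. Their median spot SD was 0.017 for *Tuba1b*, 0.031 for *Tfrc*, 0.071 for *G6pd2*, 0.151 for *Ldhal6b* and 0.152 for *Gk*. The highest on an array was 0.441, for *Ldhal6b*.

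These SDs leave out the 74 spots, 6.17% of the 1200, that the scanner software had marked as outliers. The marks cover spots that stand out from their replicates and spots that are not uniform. Leaving out the first kind narrows the spread by construction. With them kept, the median SD was 0.036 and the highest 0.129. By position on the glass, spots of these genes above the middle row differed from those below it by at most 0.014 on an array. Left and right of the middle column they differed by at most 0.021 on 5 arrays and by -0.047, left minus right, on *Khsrp*-/- array 3, about the median spot SD of that array. Before background subtraction that difference was 0.028, in the opposite direction.

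Between arrays of the same genotype the residual SD of the 10 genes was 0.142 (*Tbp*) to 0.254 (*Hprt*), with a median of 0.174, where the median of all features tested was 0.245. It was 2.58 to 8.73 times the median spot SD of the same gene, and the error of averaging spots made up between 0.081% and 1.03% of the variance between arrays. Unscaled, the median residual SD was 0.113, lower than with the percentile subtracted for 9 of the 10 genes. *Actb* was the exception, with 0.305 unscaled and 0.207 scaled. Among the other genes with replicate spots, the scaled residual SD was 0.151 for *G6pd2*, 0.191 for *Tuba1b*, 0.258 for *Ldhal6b*, 0.323 for *Tfrc* and 0.677 for *Gk*.

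**Figure D5:**
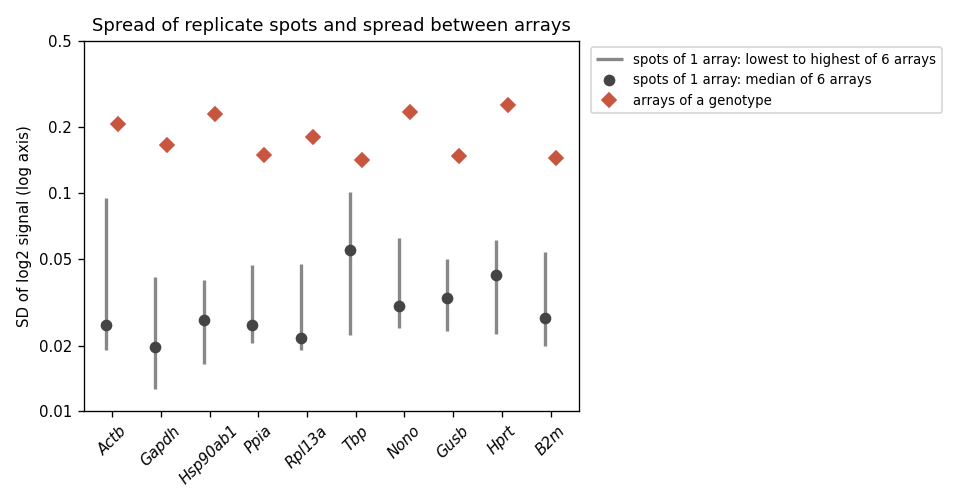
SD of the log2 signal (log axis) for each reference gene over its replicate spots on an array (grey, median and range of 6 arrays) and between arrays of the same genotype (red). For every gene the spread between arrays lies above the range of the spots, from 0.142 for *Tbp* to 0.254 for *Hprt*.

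Other features of the same genes were available for 2 of the 10. The design holds control spots named Mouse-GAPDH_3 and Mouse-GAPDH_5, 10 of each, which were outside the limma fit, and the files do not say what the endings stand for. Mouse-GAPDH_3 was 8.49, 8.86 and 8.62 in *Khsrp*-/- against 8.61, 8.56 and 8.69 in wild type, highest on *Khsrp*-/- array 2 and lowest on *Khsrp*-/- array 1 as the replicate spots of *Gapdh* were. Mouse-GAPDH_5 was 6.84, 7.31 and 6.49 against 7.04, 6.93 and 7.12. Its level relative to Mouse-GAPDH_3 deviated from the mean of the 6 arrays by -0.45 on *Khsrp*-/- array 3 and by 0.04 to 0.13 on the other 5. The matching pair for *Pgk1*, another glycolytic enzyme, deviated by 0.16 on *Khsrp*-/- array 3, and by -0.20 to 0.12 on the others. The pairs named for rat and human GAPDH deviated there by 0.03 and -0.15, within the ranges of the other arrays. The level of their spots, of either ending, was lowest on that array. The pair for rat PGK1 deviated by 0.69 there and by 0.85 on *Khsrp*-/- array 2, and by -0.50 to -0.23 on the others. The pair for human PGK1 deviated there by 0.14, within the range of the others. *Actb* was also lowest on *Khsrp*-/- array 3, and the part of these array differences in its level was not tested.

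For *Hsp90ab1*, a second feature, named in the study's table of selected features, differed more between genotypes than the replicate spots did. It measured 7.57, 6.83 and 6.14 in *Khsrp*-/- against 8.31, 8.39 and 7.91 in wild type, a difference of -1.35 ± 0.35 (SE, limma adjusted p = 0.196, past the unadjusted threshold) where the 20 spots gave -0.02. That feature was named in a table selected on these same arrays, so its direction is no independent evidence. On the slide with both genotypes the difference was -0.34 for this feature and -0.30 for the replicate spots. The log2 ratio of the feature to the replicate spots deviated from its mean by 0.22 and 0.25 on the arrays of that slide, by -1.03 and -1.19 on *Khsrp*-/- arrays 2 and 3, and by 0.76 and 0.98 on wild type arrays 1 and 2. The same table names a second feature of *Tfrc*, with a difference of 0.55 ± 0.17 (SE, limma adjusted p = 0.228). It was likewise selected on these same arrays, so its difference is no independent evidence.

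From a wider list of 30 reference genes only 3 had a feature named in that selected table, all higher in *Khsrp*-/- there. Besides *Tfrc* these were *Rplp0*, a ribosomal stalk protein, with a difference of 0.46 ± 0.18 (SE, limma adjusted p = 0.285), and *Aldoa*, the glycolytic aldolase, with 0.80 ± 0.26 (SE, limma adjusted p = 0.235). On the slide that held both genotypes *Rplp0* differed by 0.02, *Aldoa* by 0.42 and the second feature of *Tfrc* by 0.39. *Pgk1*, also on the list, was measured only by the control spots named for it, and the others were not analysed here.

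The spots for RNA added from outside did not give an array level to set beside these genes. Of 10 names of the E1A series, 12 of the ERCC series and 13 of the ETG series, 1, 3 and 2 had at least 50% of their spots well above background on all 6 arrays.

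The unscaled difference between genotypes also varied with signal. With the features well above background on all 6 arrays divided into 10 groups of equal size by mean signal, from dim to bright, its median was -0.22 in the dimmest group, -0.31 in the second, lowest at -0.33 in the third and -0.21 in the brightest group, where 7 of the 10 reference genes lay. *Nono* lay in the ninth group, *Gusb* in the eighth and *Tbp* in the seventh, with medians of -0.21, -0.25 and -0.29. In the brightest group the unscaled differences were -0.72 for *Actb* and -0.31 for *Hsp90ab1*, below the median of the group, and -0.19 for *Ppia*, -0.16 for *Gapdh*, -0.05 for *B2m*, 0.03 for *Hprt* and 0.17 for *Rpl13a*, above it.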

How the data were processed

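RNA from the neocortex of adult male mice, 3 *Khsrp*-/- and 3 wild type, was depleted of rRNA, labelled with oligo(dT) and random primers and hybridized in 1 colour to Agilent LncRNA arrays with 62939 spots. The authors deposited scanner output of Feature Extraction 11.0.1.1, whose processed signal is an intensity with the background subtracted and no scaling between arrays. The median spot and background intensity and the marks for outlier, saturated and well-above-background spots were used too. The authors also deposited normalized log2 values of the same arrays, for which the submitters' processing notes name limma, and these served as an alternative.

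Control spots, 300 spots named as negative controls and outliers (47 to 64 per array) were left out, log2 signals were averaged per feature, the 75th percentile was subtracted, and features well above background on at least 3 of 6 arrays were fitted with lmFit and eBayes (limma 3.58.1, statmod 1.5.0, R 4.3.3), with Benjamini-Hochberg adjustment. The fit was first tested on simulated data. Permutation tests used scipy 1.17.1, tables pandas 2.3.3 and figures matplotlib 3.10.9. The number of arrays limits the precision. Names came from RefSeq accessions through a GRCm38.p6 table. The second *Hsp90ab1* feature was identified by its signals on the 6 arrays. The array design names mm9, so no coordinates are given. All 10 reference genes are named, as are the other genes with replicate spots, the most and least constant pairs, and listed genes with a named feature. The genes and lists were chosen with earlier results of these data known. The subtraction of the mean of 9 genes without *Actb*, the groups by signal and the use of control spots were chosen after the data were examined.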

Additional observations from a re-analysis of the deposited data

Results flagged for a closer look

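Among spots for RNA added from outside, which no comparison uses, 2 names had, on a *Khsrp*-/- array, a signal above that of every wild type array with at least 50% of their spots well above background there and under 50% on each wild type array. ERCC-00171_229 had an unscaled log2 signal of 3.99 on *Khsrp*-/- array 1, with 85.7% of its 35 spots well above background, against 2.16 to 2.55 on the wild type arrays. ETG10_13482 had 4.24 on *Khsrp*-/- array 2, with 58.3% of 12 spots well above background, against 1.54 to 1.99 on the wild type arrays, and 3.45 on *Khsrp*-/- array 3, on the same slide as array 2.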

How the results depend on the processing

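Of the 10 genes, 1 was called at the unadjusted threshold as reported, and 0 with the adjusted p under any alternative tried. The count was 2 with the percentile taken over features above background on all arrays (*Rpl13a*, *Actb*). Of all 48438 features, 4030 were then called higher and 3848 lower. The methods' t-test also gave 2 (*Rpl13a*, *Gusb*), with 3475 features higher and 1817 lower. The count was 3 (*Rpl13a*, *Actb*, *Gusb*) with normexp (of all features, 5255 higher and 2790 lower), the filter for all 6 arrays (4406 and 3234 of 41974) and a trend and robust variances (4704 and 3578). It was 1, *Actb*, with no scaling (1221 and 7286) and with reference-gene scaling (2040 and 4503). It was 0 with the slide as a fixed block or as a random block (3382 and 2217). With each array left out it was from 0 to 3, where 2520 to 6641 features were called higher and 1495 to 6409 lower. It was 3 (*Rpl13a*, *Hprt*, *Gusb*) without *Khsrp*-/- array 1 (6641 and 6409). With the replicate number as a block it was 0 (3540 and 2667 of 48437, and *Rpl13a* had a limma adjusted p of 0.399). The deviations of same-numbered arrays correlated at -0.31, 0.10 and -0.31, so the numbers were not taken to pair samples. *Actb*, *Gusb* and *Rpl13a* kept their direction under all 22 alternatives.

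With no scaling the difference was -0.053 for *B2m*, -0.16 for *Gapdh*, -0.16 for *Nono*, -0.19 for *Ppia* and -0.096 for *Tbp*, all above 0 as reported. With the mean of the 10 genes subtracted it was -0.016 for *Gapdh*, -0.021 for *Nono* and -0.046 for *Ppia*, and with the mean of the 9 without *Actb* it was -0.080, -0.086 and -0.11 for these and -0.018 for *Tbp*. With the slide as a block it was -0.16 for *Gapdh*, -0.19 for *Hprt*, -0.21 for *Nono*, -0.19 for *Ppia* and -0.045 for *Tbp*. These are the differences of the only pair of arrays that shared a slide across genotypes. With each array left out, *Hsp90ab1* ran from -0.20 to 0.070, *Nono* from -0.046 to 0.22, *Gapdh* from 0.032 to 0.26, *Ppia* from 0.036 to 0.22, *Tbp* from 0.094 to 0.27 and *Hprt* from 0.20 to 0.52. The lowest of these came without *Khsrp*-/- array 2, or array 3 for *Hprt*, and the highest without array 1, or array 3 for *Hsp90ab1*. The cause was not tested.

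The median SD between arrays of a genotype, 0.174 as reported, was 0.113 with no scaling and 0.110 with reference-gene scaling, and ran from 0.119 to 0.199 with each array left out. Reference-gene scaling subtracts the mean of these same genes, so part of that lower SD is built in. The largest difference by position, -0.047 for left minus right on *Khsrp*-/- array 3, was 0.028 before background subtraction, so its direction turned. *Actb* was the least constant gene in its ratios under every alternative, and *Gapdh* with *Ppia* the most constant pair except without *Khsrp*-/- array 3, where it was *Hprt* with *Nono*. The least constant pair was *Actb* with *Hprt* with the median over spots and without *Khsrp*-/- array 1 or 2 or wild type array 1, and *Actb* with *Gusb* without wild type array 2. *Tbp* in place of *Gapdh* had the lowest mean SD with the median over spots (0.159) and without *Khsrp*-/- array 3 (0.119).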
